A study of Sus scrofa with 9 samples.

Results

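Porcine valve interstitial cells (PVICs) cultured in osteogenic medium with basic fibroblast growth factor (bFGF) were compared with PVICs left in plain medium, gene by gene. The members are the gene rows of the count table, with circular RNAs, non-coding transcripts and assembled transcripts set aside, and all 19535 genes of the series were used in 6 of its 9 libraries. PVICs are the fibroblast-like cells that fill the aortic valve leaflet; here they came from wild-type pigs aged 4 to 5 months and were grown in culture. The 3 control libraries came from cells in DMEM without osteogenic supplements or bFGF. Serum is named in the methods for the cultures and is not named in the labels. The 3 bFGF libraries came from cells given 50 ng/mL bFGF in osteogenic medium (OIM), which holds ascorbic acid at 50 µg/mL, phosphate as its sodium dihydrogen salt at 2 mmol/L, and insulin. The other 3 libraries, OIM without bFGF, are given side by side. According to the labels the treatment lasted 3 days. No group received bFGF in plain medium, so OIM and bFGF cannot be told apart in this comparison, and since a comparison of OIM with control would share the control libraries, OIM values are given as levels, with no test. Neither the labels nor the methods tie a library to its own animal or culture, so p-values measure only the spread between these libraries, which may be technical.

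bFGF (the product of FGF2) binds receptor tyrosine kinases of the FGF receptor family, with heparan sulfate as a cofactor, and signals through RAS and the kinase ERK. ERK induces ETS-family and AP-1 transcription factors together with its own brakes, the Sprouty proteins and the dual-specificity phosphatases, and it drives entry into the cell cycle. In valve fibroblasts and smooth muscle, FGF signalling is known to oppose the contractile myofibroblast programme that TGF-beta and serum response factor maintain. PVICs in osteogenic medium are used as a culture model of valve calcification, in which matrix production, phosphate handling and bone-related genes are followed.

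Total counts ran from 46773376 to 48270827 in the bFGF libraries, from 57075793 to 64723837 in the control libraries and from 57682710 to 67371523 in the OIM libraries, so counting error matters mainly for low genes. Among OIM libraries the second stood apart, with a mean chi-square per gene of 19 and 19.1 against the other two, which differed from each other by 5.87, and the control pairs by 5.66 to 11.6. The 10 most abundant genes took 8.35% to 8.45% of counts in bFGF libraries and 13.1% to 13.7% in control libraries. Summed over 11 valve interstitial markers, control libraries held 81200 to 87600 TMM-scaled CPM and bFGF libraries 48500 to 49500, with VIM and S100A4 called higher and 6 others called lower. Endothelial markers summed to 74.0 to 76.3 CPM in control and 170 to 180 CPM in bFGF libraries, and 5 of 10 were called higher, although the leaflet surface had been scraped to remove such cells. Most of that sum was ERG, an ETS factor, at 51.5 ± 0.405 and 137 ± 5.05 CPM, and PECAM1, a defining marker, was at 12.8 ± 0.906 and 20.7 ± 1.07 CPM. EMCN, TEK and ROBO4 were called higher at no more than 2.95 CPM, TEK and ROBO4 not in every fit without 1 library. CDH5 (5.89 and 8.24 CPM) was just inside the fold limit (0.49 ± 0.13) and passed it in 3 of 6 fits without 1 library, and VWF (0.479 and 0.228 CPM) was not called. Cardiomyocyte markers summed to 21.9 to 25.1 and 49.1 to 57.7 CPM, mostly TTN at 14.96 ± 1.74 and 44.6 ± 5.35 CPM, with TNNT2 and NPPA listed at 0. TTN and TNNI3 were called higher and RYR2 lower, at 5.76 ± 0.68 and 3.95 ± 0.78 CPM, and TNNI3 and RYR2 did not keep the call in every fit without 1 library. Macrophage markers summed to 16.8 to 20.5 and 10.6 to 11.9 CPM, and melanocyte markers to 21.2 to 22.6 and 6.14 to 8.61 CPM, mostly MITF, and in each of these lists 2 were called lower and none higher. Lymphocyte, epithelial and erythroid markers each stayed under 1 CPM. The part of other cell types in the results was not tested. In bulk RNA, fewer cells of a type and less RNA per cell cannot be told apart.

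A gene was called when its adjusted p in edgeR's quasi-likelihood test was at most 0.05 and its log2 fold change, bFGF minus control, was at least 0.5 in size. Of 13662 genes with enough counts to test, 5323 were called (39.0%): 2584 higher in bFGF libraries (18.9%) and 2739 lower (20.0%). Counts of called members in each gene list below are to be read beside these shares. Changes of at least 4-fold were called for 461 genes higher and 453 lower. In 73.7% of the tested genes the 3 bFGF libraries lay entirely above or entirely below the 3 control libraries. Of the 5323 genes, 4582 passed again in each of 6 fits with 1 library removed. Scaling the libraries by their totals alone, without TMM, moved the median log2 fold change of all genes by 0.225 and gave 3931 higher and 1840 lower calls, so that 68.1% of calls were higher in place of 48.5%. With that scaling COL3A1, FN1, GATA6, ITGA1, ITGB1, MX1, RYR2, TGFB2 and XBP1, given as lower in the text, were inside the fold limit, and CDH5, ETV1, FGF7, FGFR1, ID1, MGP, PLAU, SFRP1 and SPRED2 passed it as higher. Changes are given relative to the TMM scale, on which the median over all genes tested was -0.02. Unless another quantity is named, each signed value below is a log2 fold change (bFGF minus control) ± an SE, CPM values are TMM-scaled, and each group has n = 3 libraries. The SE was derived as the size of the log2 fold change divided by the square root of the test's F statistic.

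**Figure D1:**
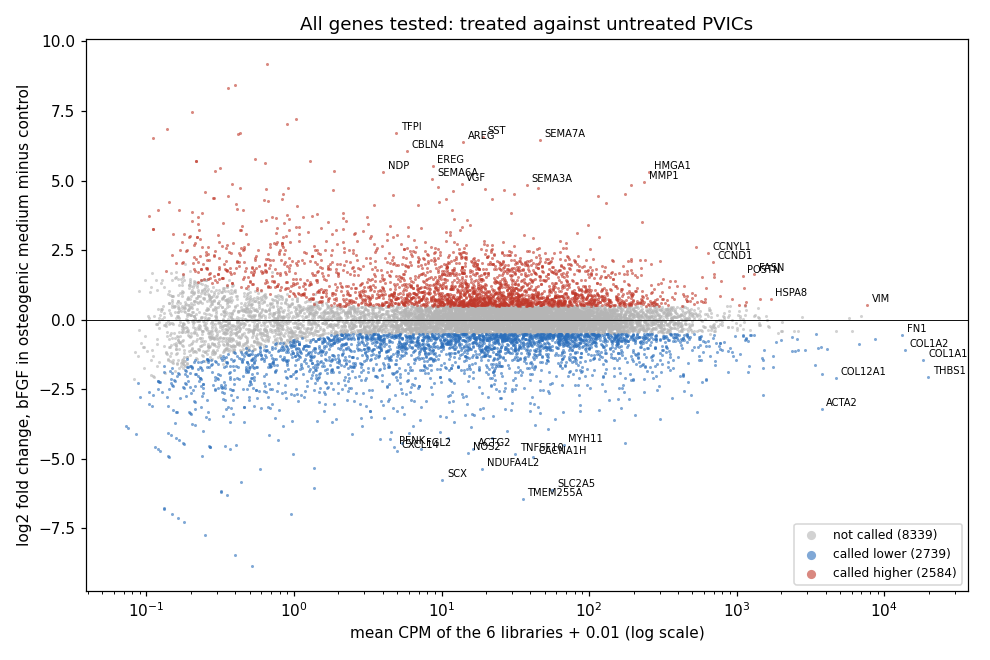
Each point is 1 of the 13662 genes tested, with the mean CPM over the 3 control and 3 bFGF libraries plus 0.01 on a log axis against the log2 fold change (bFGF in osteogenic medium minus control); red and blue points are the 2584 genes called higher and the 2739 called lower. The labelled genes are, among genes with a symbol, those with the largest fold changes above 5 CPM and those with the largest differences in CPM. THBS1, COL1A1, COL1A2 and FN1 sit at the right edge below 0, and VIM above it.

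Among genes with a symbol, the 12 with the largest fold increase that reached 5 CPM included secreted ligands and guidance molecules. These were almost silent in control cells. SEMA7A, a membrane-anchored semaphorin, was at 1.27, 0.957 and 0.904 CPM in the control libraries and at 88.8, 91.5 and 95.7 CPM in the bFGF libraries (6.47 ± 0.16, edgeR adjusted p = 8.93e-18). SEMA6A (5.06 ± 0.23) and SEMA3A (4.85 ± 0.14, from 2.54 to 73.3 CPM), also semaphorins that guide growing axons and vessels, rose with it. The hormone somatostatin gene SST rose from 0.392 ± 0.106 to 37.9 ± 5.73 CPM (6.58 ± 0.19), and VGF, the precursor of neuroendocrine peptides, from 0.911 to 26.5 CPM (4.86 ± 0.16). TFPI, the inhibitor of tissue factor, had the largest change of this set, from 0.128, 0 and 0.151 CPM in control to 10.8, 8.32 and 10.1 CPM in bFGF libraries (6.70 ± 0.35, edgeR adjusted p = 1.13e-12). The synaptic organizer CBLN4 (6.05 ± 0.30) and NDP, which encodes the Wnt-pathway ligand norrin (5.32 ± 0.27), completed the secreted genes of the set with AREG, EREG and MMP1, described below.

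Among genes with a symbol, the 12 with the largest fold decrease above 5 CPM were led by TMEM255A (-6.44 ± 0.11, 69.96 to 0.804 CPM) and the fructose transporter SLC2A5. SLC2A5 was at 107, 121 and 106 CPM in control libraries, 87.4, 92.2 and 88.4 CPM in OIM libraries and 1.16, 2.17 and 1.46 CPM in bFGF libraries (-6.12 ± 0.11, edgeR adjusted p = 7.16e-20). SCX, the tendon transcription factor scleraxis, fell from 19.9 ± 0.689 to 0.367 ± 0.0796 CPM (-5.75 ± 0.18). CACNA1H, a T-type calcium channel (-4.92 ± 0.14), NOS2, the inducible nitric oxide synthase (-4.80 ± 0.17), PENK, the enkephalin precursor (-4.58 ± 0.23), and FGL2, a fibrinogen-like immune regulator (-4.66 ± 0.19), fell with them.

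By the size of the change in CPM among genes with a symbol, the transcripts that gained most were VIM (vimentin, 6248 ± 106 to 9008 ± 87.3 CPM), FASN (fatty acid synthase, 632 ± 35.98 to 1987 ± 65.5), POSTN (periostin, 555 ± 23.9 to 1645 ± 31.4), CCNYL1, CCND1 and HSPA8, a heat shock cognate chaperone. CCNYL1, a cyclin Y relative, rose from 204 ± 3.27 to 1076 ± 23.04 CPM (2.40 ± 0.05). The transcripts that lost most were matrix and contractile genes, led by THBS1, which encodes the adhesive glycoprotein thrombospondin 1. It was the most abundant of these in control cells, at 31410, 32930 and 31640 CPM, and stood at 7291, 7904 and 7587 CPM in bFGF libraries (-2.08 ± 0.04, edgeR adjusted p = 5.45e-19). OIM libraries held 32960, 29170 and 31600 CPM, which overlaps the control range.

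Some genes were at or near 0 counts in one group. In 30 genes called higher no control library had more than 3 counts, and in 48 genes called lower no bFGF library did. Against that floor of 3 counts per library, TNFSF11 (RANKL, the osteoclast-activating ligand), at 0 in all control libraries, was at least 7.47-fold higher at 0.386 CPM, and the cadherin CDH6 was at least 23.97-fold higher at 1.24 CPM. LYVE1, a hyaluronan receptor, was at 0.783 CPM in control and 0 in all bFGF libraries, at least 13.7-fold lower, and the Eph receptor EPHA10 was at least 17.8-fold lower. These are low levels even where they are highest.

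Of 22 ERK feedback genes tested, 11 rose and 3 fell, with a median of 0.87. DUSP6, the phosphatase that removes activating phosphates from ERK, was at 8.97, 8.91 and 9.01 CPM in the control libraries, 10.6, 13.8 and 9.89 with OIM and 45.5, 47.2 and 40.4 with bFGF (2.31 ± 0.10, edgeR adjusted p = 4.87e-14). DUSP5, a nuclear ERK phosphatase, rose (2.44 ± 0.14), as did DUSP4 (1.76 ± 0.11). The Sprouty genes, which block receptor signalling upstream of RAS, rose, SPRY1 by 1.95 ± 0.11, SPRY2 by 1.77 ± 0.07 and SPRY4 by 1.69 ± 0.09. SPRED1, a Sprouty relative that inhibits RAS (1.22 ± 0.04), and IL17RD, a membrane antagonist of FGF signalling (1.41 ± 0.10), rose as well. SPRED2 did not pass the fold limit (0.30 ± 0.06).

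FGF receptors and ligands did not move as 1 group: of 19 tested, 3 rose and 7 fell (15.8% and 36.8%, beside 18.9% and 20.0% of all genes tested). With scaling by totals 7 rose and 6 fell. FGFR2 was at 149, 169 and 157 CPM in control libraries, 134, 118 and 135 CPM in OIM libraries and 16.4, 16.3 and 15.8 CPM in bFGF libraries (-3.29 ± 0.06, edgeR adjusted p = 1.8e-19). FGFR1, the other receptor well expressed here, was at 175, 186 and 175 CPM in control and 228, 226 and 223 CPM in bFGF libraries, all above control but short of the fold limit (0.34 ± 0.04). Per kilobase of annotated exon, the level of FGFR1 was 54.4 CPM in control and 68.7 CPM in bFGF libraries, and that of FGFR2 was 59.8 and 6.11 CPM. On this per-length scale the receptors were close in control cells, and FGFR1 was the higher in bFGF cells. FGFRL1, a receptor-like protein without a kinase domain, fell (-1.79 ± 0.07). The cells' own FGF2 transcript fell from 409, 408 and 422 CPM to 215, 226 and 203 CPM (-0.94 ± 0.04, edgeR adjusted p = 3.04e-14). FGF1, the acidic FGF, rose from 0.744 ± 0.377 to 13.1 ± 0.201 CPM (4.12 ± 0.22). The intracellular FGF homologues split, with FGF13 higher (1.99 ± 0.11) and FGF11 and FGF12 lower (-2.51 ± 0.14 and -2.40 ± 0.12). FGF7 stayed within the fold limit (0.34 ± 0.04).

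Among 31 transcription factors and early genes linked to ERK, 12 rose and 6 fell (38.7% and 19.4%, beside 18.9% and 20.0% of all genes tested). HMGA1, a chromatin architectural protein of growing cells, was at 12.3, 13.7 and 11.7 CPM in the control libraries, 10.2, 18.6 and 8 with OIM and 498, 491 and 499.5 with bFGF (5.30 ± 0.17, edgeR adjusted p = 4.56e-16). Its relative HMGA2 rose from 0.674 to 18.2 CPM (4.75 ± 0.16). The FGF-responsive ETS factors ETV4 (2.42 ± 0.12) and ETV5 (2.47 ± 0.18) rose, while ETV1 did not pass the fold limit (0.29 ± 0.07). FOSL1, an AP-1 subunit stabilized by ERK, rose (2.06 ± 0.12) and its relative FOSB fell (-2.61 ± 0.26). EGR1 (1.38 ± 0.11), EGR2 (2.24 ± 0.13) and MYC (0.64 ± 0.06) were also called higher.

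**Figure D2:**
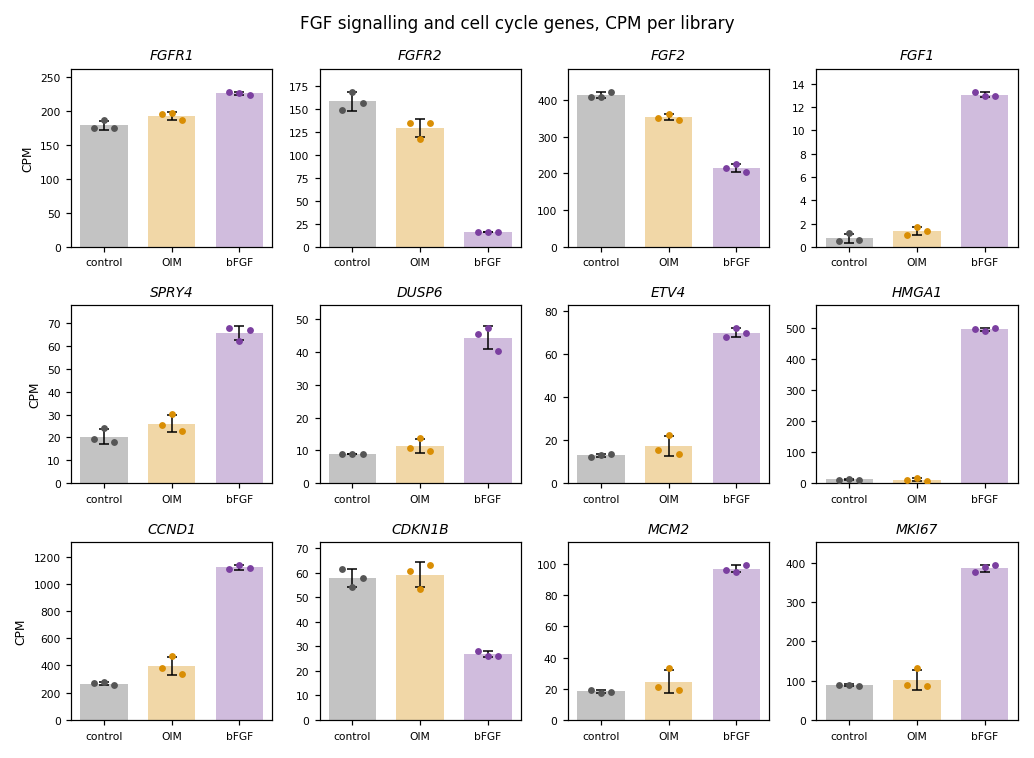
Bars show the mean CPM of 3 libraries in control, OIM and bFGF, with the SD as the error bar and each library as a point, for 12 genes of FGF signalling and the cell cycle. FGFR2, FGF2 and CDKN1B are lower in bFGF libraries than in both other groups, FGFR1 is slightly above control, and the other genes stand well above both groups.

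Genes of cell division rose almost as a block. All 54 mitosis genes tested were called higher, with a median of 1.93, and 42 of 45 DNA replication genes were, with a median of 1.71. Every bFGF library lay above every control library for all 54 mitosis genes, and for 4973 of the 13662 genes tested. MKI67, the proliferation marker Ki-67, was at 88.9, 89.8 and 86.3 CPM in the control libraries, 89.1, 131 and 85.2 with OIM and 378, 389 and 395 with bFGF (2.13 ± 0.10, edgeR adjusted p = 2.26e-13). The mitotic kinase CDK1 (1.91 ± 0.09) with its partner cyclin CCNB1 (2.14 ± 0.09), Aurora kinase AURKA (2.00 ± 0.08) and topoisomerase TOP2A (1.99 ± 0.07) rose by similar amounts. MCM2 and MCM3, subunits of the replicative helicase, rose by 2.41 ± 0.13 and 2.77 ± 0.13, the loading factor CDT1 by 2.68 ± 0.13 and the sliding clamp PCNA by 1.89 ± 0.07. RRM2, the deoxyribonucleotide-making subunit of ribonucleotide reductase, went from 87.8 to 271 CPM (1.62 ± 0.10). Of 32 homologous recombination and Fanconi genes 29 rose, with a median of 1.97, among them BRCA1 (2.10 ± 0.09), EXO1 (2.70 ± 0.14) and FANCD2 (1.84 ± 0.08).

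Regulators of the G1 phase were divided, 13 higher and 6 lower of 24. CCND1, the cyclin that ERK induces to start the cycle, was at 268, 276 and 254 CPM in the control libraries, 379.8, 469 and 336 with OIM and 1110, 1140 and 1114 with bFGF (2.08 ± 0.08, edgeR adjusted p = 4.12e-15). CCND2 did not pass the fold limit (-0.25 ± 0.04). E2F1 (2.47 ± 0.12) and E2F8 (2.44 ± 0.12), transcription factors of S phase, rose. The inhibitors CDKN1A (p21, -0.97 ± 0.04), CDKN1B (p27, -1.11 ± 0.06) and CDKN1C (p57, -0.75 ± 0.13) fell, and CDKN2B (p15) rose (1.85 ± 0.10).

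Because replication and mitosis genes moved together, their promoters were read from the reference genome Sscrofa11.1, 250 bases before to 50 bases after the RefSeq gene start. The E2F motif was searched as TTTGGCGC, TTTCCCGC or TTTCGCGC on both strands, whose matches can overlap. It stood in 12 of 45 replication promoters (26.7%), 8 of 54 mitosis promoters (14.8%) and 6 of 32 repair promoters (18.8%), and in 484 of 13640 promoters of tested genes (3.55%). A match is a string of letters and not evidence of binding. Matches upstream of the gene start are shown for CDT1, CDK1 and MKI67 and for MCM6 and BRCA2, which were picked for the match and rose by 1.56 ± 0.06 and 1.80 ± 0.07; capitals mark the motif, each line is read along the gene's strand, and a reverse-strand match appears as its complement.
CDT1 (chr6:897748-897775, minus strand): ggcgcgtcccTTTCCCGCcaacccccgg
CDK1 (chr14:64233848-64233875, plus strand): ttcctccttcTTTCGCGCtctagccacc
MKI67 (chr14:137296347-137296374, minus strand): gcagcgcttaGCGCCAAAtttgaatcga
MCM6 (chr15:15923566-15923593, plus strand): ggcaggcttgGCGCGAAAtctctgagct
MCM6 (chr15:15923504-15923531, plus strand): tttgcatttgGCGCGAAAtctctgctac
MCM6 (chr15:15923500-15923527, plus strand): ggtctttgcaTTTGGCGCgaaatctctg
BRCA2 (chr11:8805916-8805943, plus strand): agagccggctTTTGGCGCgagcgtctga

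Ribosome production genes followed. Of 52 tested, 44 rose, with a median of 0.76. NCL, nucleolin, rose from 313 ± 7.89 to 564 ± 11.01 CPM (0.85 ± 0.04), NOP56 by 1.07 ± 0.04 and the pseudouridine synthase DKC1 by 1.13 ± 0.07. LYAR, a nucleolar growth regulator, had the largest change of the list (2.22 ± 0.13). Mitochondrial ribosomal proteins moved less, with 20 of 72 higher and a median of 0.34, for example MRPS25 (1.17 ± 0.08) and MRPL12 (0.62 ± 0.06). Nuclear genes of oxidative phosphorylation had 2 of 34 higher and a median of 0.22. With scaling by totals these last counts became 42 and 12, and without the third bFGF library the second was 1. The nuclear envelope genes had 11 of 15 higher and 1 lower. LMNB1, lamin B1, rose from 29.9 ± 1.6 to 173 ± 4.28 CPM (2.54 ± 0.11), while LMNA was at 801 ± 29.2 and 849 ± 26.5 CPM and was not called (0.08 ± 0.04). SYNE1, which links the nucleus to the cytoskeleton, fell (-1.23 ± 0.04). Cleavage and polyadenylation factors, which cut and tail transcripts, had 5 of 22 higher (22.7%, near the 18.9% of all genes) and none lower, among them CSTF2 (0.83 ± 0.06) and CPSF1 (0.65 ± 0.05), and 12 higher with scaling by totals.

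Contractile genes were lower in bFGF libraries. Of 38 tested, 35 fell and none rose, with a median of -1.68. In all 38 the bFGF libraries lay below the control libraries, as they did in 5096 of the 13662 genes tested. ACTA2, smooth muscle alpha-actin and the usual myofibroblast marker, was at 6960, 6610 and 6791 CPM in control libraries, 9210, 6852 and 9286 CPM in OIM libraries and 704, 799 and 712 CPM in bFGF libraries (-3.20 ± 0.08, edgeR adjusted p = 2.51e-17). MYH11, smooth muscle myosin heavy chain, was at 132, 128 and 126 CPM, 325, 182 and 337 CPM and 5.05, 6.42 and 5.41 CPM in the same order (-4.51 ± 0.18, edgeR adjusted p = 1.83e-14). ACTG2, the gamma smooth muscle actin, fell from 31.6 ± 1.98 to 1.27 ± 0.249 CPM (-4.64 ± 0.20). Actin genes are close copies of each other in their coding sequence, so reads may be split between them. TAGLN (transgelin, -1.71 ± 0.06), CNN1 (calponin, -2.56 ± 0.09), MYL9 (myosin light chain, -1.80 ± 0.06) and MYLK (myosin light chain kinase, -2.34 ± 0.09) fell too. The actin nucleator LMOD1 (-2.36 ± 0.08) and the adhesion protein LPP (-0.96 ± 0.05) were likewise lower. FAP, the activated-fibroblast protease, stayed within the fold limit (-0.34 ± 0.04).

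Serum response factor binds CArG boxes in many of these genes. Its own transcript SRF was at 51.7, 52.9 and 47.9 CPM in control and 55.2, 57.6 and 53.7 CPM in bFGF libraries and was not called (0.13 ± 0.05). SRF and its cofactors, YAP, the TEAD factors and their targets together had 3 of 28 higher and 13 lower, or 5 and 10 with scaling by totals. The matricellular YAP targets CYR61 and CTGF fell, CYR61 from 771 ± 16.4 to 165 ± 4.94 CPM (-2.22 ± 0.05) and CTGF from 2301 ± 15.4 to 696 ± 31.8 CPM (-1.73 ± 0.05). AMOTL2, a YAP-binding protein and target, fell (-1.61 ± 0.05), whereas YAP1 itself was not called (0.16 ± 0.03) and FHL2, a LIM-domain cofactor, rose (1.39 ± 0.04).

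The CArG box was found in 5 of 38 contractile promoters (13.2%) and in 188 of 13640 (1.38%), with both strands searched. The 6 boxes of these 5 promoters are shown. TAGLN holds 2 of them, and the other genes, of which CNN2, TPM4 and VCL are shown for the match alone, fell by 1.80 (MYL9), 1.39 (CNN2), 1.12 (TPM4) and 0.83 (VCL) on the log2 scale. Capitals mark the CArG box.
TAGLN (chr9:44561682-44561711, plus strand): gtgtctttccCCAAATATGGagcctgtgtg
TAGLN (chr9:44561555-44561584, plus strand): gtcctcctgtCCATAAAAGGcttttcccgg
MYL9 (chr17:39788085-39788114, plus strand): tgggtcgaagCCAAATAAGGccgggctgct
CNN2 (chr2:77385612-77385641, minus strand): agccgcgcggCCTTATAAGGacatgtgcgc
TPM4 (chr2:61476813-61476842, minus strand): aatcctaggcCCAAATAAGGcgagggctgc
VCL (chr14:76699927-76699956, plus strand): cccaccatgcCCTTATAAGGagcgcccggc

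Collagen chains moved in both directions. Of 34 collagen chains, 17 fell and 8 rose (50.0% and 23.5%, beside 20.0% and 18.9% of all genes tested), with a median of -0.68. A fit without the 50 most abundant genes, which include 8 of these chains, left 11 lower and 8 higher with a median of -0.32. COL1A1, the main chain of collagen I, was at 25370, 28990 and 26640 CPM in the control libraries, 26120, 23880 and 25150 with OIM and 9735, 10140 and 9782 with bFGF (-1.45 ± 0.04, edgeR adjusted p = 1.38e-16). COL1A2 (-1.09 ± 0.03), COL3A1 (-0.70 ± 0.03), COL5A1 (-1.12 ± 0.04) and COL12A1 (-2.09 ± 0.05) fell. COL11A1, a chain that starts thin cartilage-type fibrils, fell from 642 ± 11.7 to 91.7 ± 6.999 CPM (-2.81 ± 0.07), and the basement membrane chain COL4A1 fell (-1.22 ± 0.06). COL14A1 and COL15A1 were inside the fold limit (-0.24 ± 0.04 and -0.38 ± 0.04). COL18A1, a basement membrane collagen, rose from 108 ± 2.51 to 315 ± 3.04 CPM (1.55 ± 0.05), and COL7A1, of anchoring fibrils, from 6.7 to 26.2 CPM (1.97 ± 0.08). The transmembrane collagens COL13A1, COL17A1 and COL23A1 rose, but reached only 1.39, 1.85 and 3.46 CPM. On the per-length scale the level of COL1A1 was 4400 CPM per kilobase in control and 1610 in bFGF libraries, and that of COL3A1 2240 and 1390.

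Enzymes that modify and crosslink collagen were 14 of 28 lower and 6 higher (50.0% and 21.4%, beside 20.0% and 18.9% of all genes tested). LOXL2, which crosslinks collagen, was at 2511, 2765 and 2534 CPM in the control libraries, 1589, 1629 and 1575 with OIM and 405, 403 and 397 with bFGF (-2.70 ± 0.04, edgeR adjusted p = 8.86e-21). The 3 groups did not overlap. The prolyl hydroxylase subunits P4HA1 (-2.55 ± 0.04) and P4HA2 (-2.38 ± 0.04), the lysyl hydroxylase PLOD2 (-1.95 ± 0.04), the collagen chaperone SERPINH1 (-1.07 ± 0.04) and lysyl oxidase LOX (-1.28 ± 0.04) fell. P4HA3 (0.82 ± 0.05), LOXL1 (0.85 ± 0.05) and TLL1, a procollagen-processing protease (2.02 ± 0.12), rose, so the prolyl 4-hydroxylase and lysyl oxidase families held both signs.

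Non-collagen matrix was also mostly lower. Of 45 proteoglycans and glycoproteins 27 fell and 8 rose (60.0% and 17.8%, beside 20.0% and 18.9% of all genes tested), with a median of -0.86. The small leucine-rich proteoglycans DCN (decorin, -1.22 ± 0.04), FMOD (fibromodulin, -1.09 ± 0.05) and ASPN (asporin, -2.90 ± 0.06) fell, ASPN from 243, 239 and 235 to 31.9, 35.8 and 27.99 CPM. BGN (biglycan) did not pass the fold limit (-0.41 ± 0.05). VCAN, versican, fell from 4984 ± 210.5 to 2515 ± 26.7 CPM (-0.99 ± 0.04) and FN1, fibronectin, by less (-0.56 ± 0.03). THBS2, a relative of THBS1, fell from 984 ± 25.6 to 97.8 ± 5.11 CPM (-3.33 ± 0.08). Against this pattern POSTN, a matricellular protein of remodelling valves, was at 566, 571 and 528 CPM in control and 1680, 1633 and 1621 CPM in bFGF libraries (1.57 ± 0.05, edgeR adjusted p = 1.21e-16), and HAPLN1, the hyaluronan link protein, rose (1.32 ± 0.11). TNC, tenascin C, was not called (0.17 ± 0.05).

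Elastic fibre genes had 9 of 15 lower and 2 higher. FBN1, fibrillin 1, fell from 5106 ± 183 to 1669 ± 23.3 CPM (-1.61 ± 0.04). ELN, elastin, was at 116, 118 and 106 CPM in the control libraries, 254, 185 and 240.4 with OIM and 41.6, 49.5 and 41.8 with bFGF (-1.36 ± 0.09, edgeR adjusted p = 3.33e-11). Heparan sulfate genes, which make the FGF cofactor, had 4 of 25 higher and 5 lower (16% and 20.0%, beside 18.9% and 20.0% of all genes tested), or 7 and 5 with scaling by totals. The syndecans differed, with SDC1 higher (1.02 ± 0.05) and SDC2 lower (-1.75 ± 0.06), and SULF1, an enzyme that removes sulfate from heparan sulfate, fell (-1.36 ± 0.04). In the hyaluronan list the synthase HAS3 rose (3.16 ± 0.13), the receptor CD44 rose (0.75 ± 0.04) and the hyaluronan-degrading CEMIP fell (-2.85 ± 0.05).

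Matrix proteases and their inhibitors were split, 9 higher and 15 lower of 37 (24.3% and 40.5%, beside 18.9% and 20.0% of all genes tested). MMP1, the interstitial collagenase, was at 16.6, 14.7 and 13.2 CPM in the control libraries, 7.84, 15.4 and 9.42 with OIM and 461, 456 and 453 with bFGF (4.95 ± 0.14, edgeR adjusted p = 5.93e-17). ADAM8, a membrane metalloprotease, rose from 2.62 ± 0.456 to 59.7 ± 2.47 CPM (4.51 ± 0.12). The 2 aggrecan-cleaving enzymes moved apart: ADAMTS4 was at 66.4, 74.8 and 63.8 CPM in control and 296, 298 and 298 CPM in bFGF libraries (2.12 ± 0.06), while ADAMTS5 was at 94.6, 99.2 and 85.7 and 19.3, 19.6 and 18.4 CPM (-2.29 ± 0.06). MMP2, gelatinase A, fell (-0.79 ± 0.04), and the inhibitors TIMP1 (0.16 ± 0.04) and TIMP3 (0.22 ± 0.05) were inside the fold limit.

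Plasminogen and coagulation genes also went both ways, with 9 higher and 7 lower of 21. F3, tissue factor, the trigger of coagulation, was at 30.4, 28.7 and 29.2 CPM in the control libraries, 59.4, 35.7 and 64.3 with OIM and 1.73, 2.67 and 1.65 with bFGF (-3.86 ± 0.20, edgeR adjusted p = 6.21e-13). Its inhibitor TFPI had the largest increase among genes with a symbol that reached 5 CPM. The plasminogen activator PLAT rose from 68.6 ± 3.56 to 314 ± 13.8 CPM (2.20 ± 0.05), and PLAUR, the urokinase receptor, rose (1.92 ± 0.04), while urokinase itself, PLAU, was inside the fold limit (0.34 ± 0.04). SERPINB2, an inhibitor of plasminogen activators, rose (3.82 ± 0.16).

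Integrin subunits, the matrix receptors, changed in both directions, 7 higher and 10 lower of 23. ITGA2, of the collagen receptor alpha2 beta1, was at 9.82, 10.01 and 10.3 CPM in the control libraries, 9.04, 12.7 and 9.52 with OIM and 227, 224 and 205 with bFGF (4.45 ± 0.08, edgeR adjusted p = 2.95e-19). Of the other collagen-binding subunits, ITGA10 rose (1.68 ± 0.08), and ITGA1 (-0.72 ± 0.05) and ITGA11 (-1.97 ± 0.06) fell. ITGA8, found on smooth muscle and myofibroblasts, was at 1019, 997 and 1017 and 215, 242 and 229.7 CPM (-2.14 ± 0.06, edgeR adjusted p = 1.63e-16), and ITGA7, a laminin receptor of muscle, fell as well (-2.94 ± 0.21). ITGB3 (2.09 ± 0.06), ITGB4 (2.37 ± 0.10) and ITGA6 (1.33 ± 0.04) rose, and the common partner ITGB1 fell (-0.62 ± 0.04). Cadherins and mesenchymal factors had 6 of 20 in each direction (30.0%, beside 18.9% and 20.0% of all genes tested). N-cadherin CDH2 was higher (1.17 ± 0.06) and the mesenchymal homeobox gene PRRX1 lower (-1.09 ± 0.03).

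**Figure D3:**
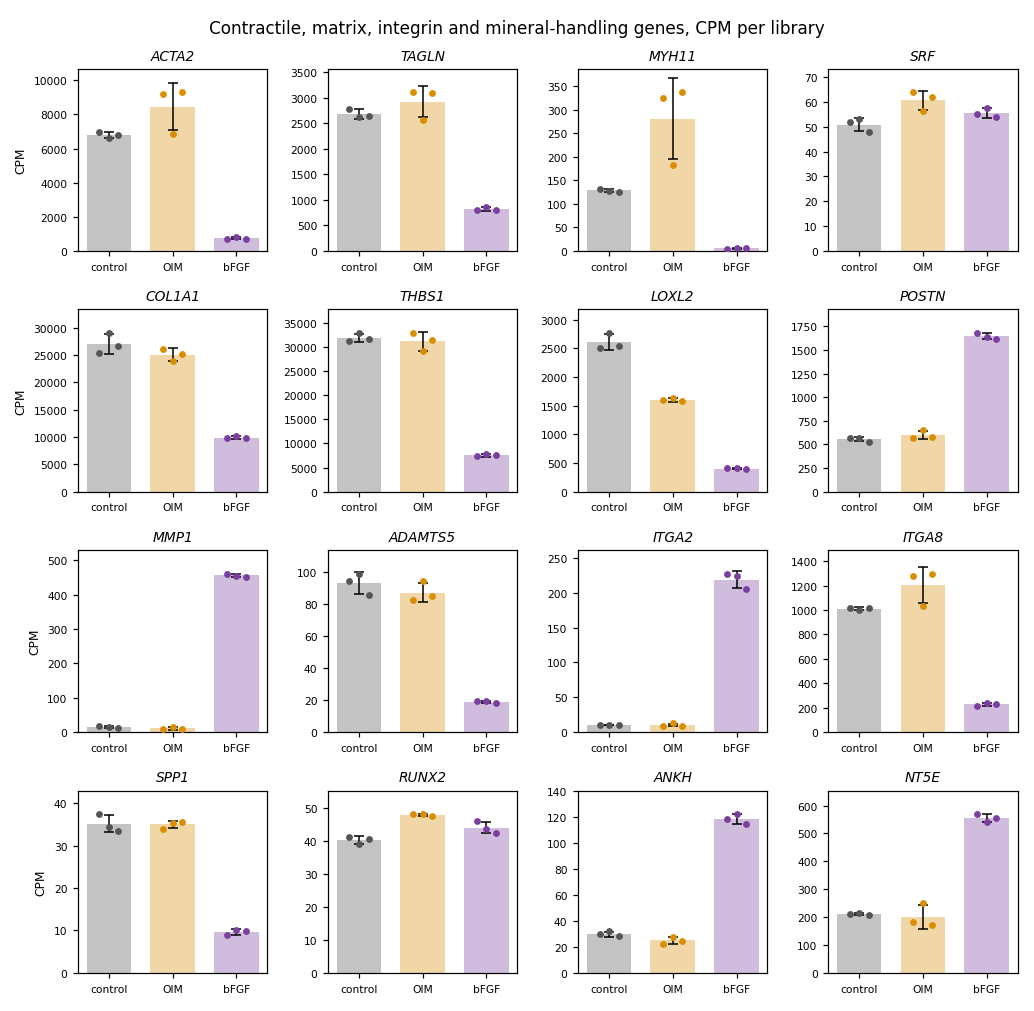
Bars show the mean CPM of 3 libraries in control, OIM and bFGF, with the SD as the error bar and each library as a point, for 16 contractile, matrix, integrin and mineral-handling genes. ACTA2, MYH11, COL1A1, THBS1, LOXL2, ADAMTS5, ITGA8 and SPP1 are lowest in bFGF libraries, POSTN, MMP1, ITGA2, ANKH and NT5E are highest there, and SRF and RUNX2 differ little.

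Bone-related genes gave 3 of 22 higher and 10 lower. RUNX2, the regulator of osteoblast fate, was at 41.3, 39.02 and 40.6 CPM in the control libraries, 48.04, 48.05 and 47.4 with OIM and 45.96, 43.6 and 42.5 with bFGF, and was not called (0.13 ± 0.05, edgeR adjusted p = 0.0273). SPP1, osteopontin, was at 37.4, 34.4 and 33.6 CPM, 34, 35.3 and 35.6 CPM and 8.88, 10.1 and 9.89 CPM in the same order (-1.87 ± 0.07, edgeR adjusted p = 5.96e-15). SPARC, osteonectin, fell from 6024 ± 124 to 1565 ± 25.1 CPM (-1.95 ± 0.04), and PTHLH, the parathyroid hormone-like peptide (-2.69 ± 0.11), and its receptor PTH1R (-2.03 ± 0.18) fell. SOX9, the cartilage regulator, stayed inside the fold limit (-0.29 ± 0.04). BGLAP, osteocalcin, was called higher at low levels, 0.275, 0.314 and 0.385 CPM in control and 1.34, 1.42 and 0.673 CPM in bFGF libraries (1.81 ± 0.42, edgeR adjusted p = 0.000709). ALPL and IBSP, the alkaline phosphatase and bone sialoprotein genes, had too few counts to be tested, at most 0.23 and 0.07 CPM in any of the 9 libraries.

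Genes of phosphate handling and mineral inhibition had 6 of 17 higher and 5 lower, or 3 lower in a fit of the 6 libraries alone. ANKH, which exports pyrophosphate, an inhibitor of mineral, was at 29.6, 31.96 and 28.01 CPM in the control libraries, 22.6, 27.7 and 24.6 with OIM and 118, 122 and 115 with bFGF (1.99 ± 0.06, edgeR adjusted p = 5.46e-16). NT5E, the ectonucleotidase CD73 that makes adenosine, was at 211, 216 and 207 and 569, 541 and 556 CPM in control and bFGF libraries (1.39 ± 0.09, edgeR adjusted p = 1.53e-11). The phosphate importer SLC20A1 rose (0.73 ± 0.04). MGP, matrix Gla protein, was at 173, 168 and 167 CPM in control and 231, 243 and 206 CPM in bFGF libraries, inside the fold limit (0.42 ± 0.06), and so was ENPP1, which makes pyrophosphate (-0.32 ± 0.06). TNFRSF11B, osteoprotegerin, the decoy receptor of RANKL, fell from 6.1 ± 0.239 to 0.539 ± 0.252 CPM (-3.50 ± 0.25).

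TGF-beta family genes had 6 of 35 higher and 16 lower (17.1% and 45.7%, beside 18.9% and 20.0% of all genes tested), with 8 lower when libraries were scaled by totals. The TGF-beta ligands differed in sign. TGFB1 rose from 20.8, 19.2 and 18.4 to 68.4, 70.8 and 70.95 CPM (1.85 ± 0.09), while TGFB2 (-0.59 ± 0.06) and TGFB3 (-1.20 ± 0.06) fell, TGFB3 from 222, 217 and 212 to 94.7, 93.7 and 94.5 CPM. INHBA, the activin A subunit, fell from 422 ± 11.3 to 116 ± 7.32 CPM (-1.87 ± 0.06), and INHBB (-3.15 ± 0.12) and GDF10 (-4.27 ± 0.22) fell further. The receptor TGFBR2 rose (0.70 ± 0.04), the co-receptor TGFBR3 fell (-1.20 ± 0.07) and the stress cytokine GDF15 rose (1.93 ± 0.10). BMP genes had 7 of 28 higher and 10 lower. BMP2 rose (1.20 ± 0.14) and BMP4 stayed inside the fold limit (-0.34 ± 0.07). The BMP target ID3 fell from 311 ± 1.86 to 103 ± 4.82 CPM (-1.59 ± 0.04) and ID2 fell (-1.61 ± 0.05), whereas ID1 was inside the fold limit (0.34 ± 0.07) and ID4 rose (0.61 ± 0.08).

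Wnt genes had 11 higher and 17 lower of 48 (22.9% and 35.4%, beside 18.9% and 20.0% of all genes tested). They included a strong pair of opposite changes. WNT5A, a ligand of the non-canonical branch, was at 4.9, 6.8 and 6.08 CPM in control and 37.9, 37.5 and 38.3 CPM in bFGF libraries (2.67 ± 0.10, edgeR adjusted p = 1.04e-14). SFRP2, a secreted Wnt modulator, was at 366, 388 and 378 CPM and 34.6, 36.2 and 34.2 CPM (-3.43 ± 0.08, edgeR adjusted p = 2.55e-18), while its relative SFRP1 was inside the fold limit (0.35 ± 0.05). Notch genes had 4 of 20 higher (20.0%, near the 18.9% of all genes) and 9 lower (45.0%, beside 20.0%). NOTCH3, the receptor of mural cells, fell from 75.6 ± 7.4 to 9.13 ± 1.79 CPM (-3.05 ± 0.11), as did the ligand JAG1 (-1.04 ± 0.06) and the target HES1 (-1.59 ± 0.22, from 3.35 to 1.11 CPM). The more abundant target HEY2 rose from 210.1 ± 1.5 to 320 ± 1.56 CPM (0.61 ± 0.04).

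Growth factors other than FGFs were also rearranged. In the PDGF, VEGF and HGF families 12 of 25 rose and 4 fell. HGF, hepatocyte growth factor, was at 18.5, 17.3 and 16.5 CPM in the control libraries, 16.2, 24.5 and 15.6 with OIM and 153, 141 and 153 with bFGF (3.10 ± 0.11, edgeR adjusted p = 2.21e-15), and its receptor MET rose (2.08 ± 0.09). VEGFC (1.41 ± 0.06), PGF (2.80 ± 0.12) and FLT1 (2.99 ± 0.20), ligands and a receptor of vessel growth, rose, and PDGFD fell (-1.51 ± 0.07). The EGF receptor ligands AREG (amphiregulin, 0.349, 0.346 and 0.285 to 24.8, 26.4 and 31.8 CPM, 6.40 ± 0.19, edgeR adjusted p = 2.34e-16), EREG (epiregulin, 5.54 ± 0.28), BTC (betacellulin, 2.73 ± 0.15) and HBEGF (1.43 ± 0.13) rose, while the receptor ERBB4 fell (-1.45 ± 0.07).

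The IGF system ran the other way, with 12 of 20 lower and 2 higher. IGF1, an insulin-like growth factor, was at 846, 849 and 839 CPM in the control libraries, 833, 725 and 815 with OIM and 138, 134 and 117 with bFGF (-2.71 ± 0.06, edgeR adjusted p = 1.28e-18). IGF2 (-2.19 ± 0.08), the binding proteins IGFBP3 (-2.55 ± 0.25), IGFBP4 (-2.34 ± 0.06) and IGFBP5 (-2.02 ± 0.11), and the receptor substrate IRS2 (-2.09 ± 0.09) fell with it. FOXO and insulin-sensing genes had 11 of 18 lower and 1 higher. ARRDC4 fell from 84.5 ± 13.2 to 8.23 ± 0.632 CPM (-3.36 ± 0.10) and SESN1 by -2.01 ± 0.08. TXNIP, a glucose-responsive inhibitor of glucose uptake, was at 5.01 ± 2.24 CPM in the control libraries, 0.765 ± 0.183 with OIM and 1.17 ± 0.226 with bFGF (-2.09 ± 0.28), so its level in OIM was already low.

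Eph receptors and ephrins had 4 of 19 higher (21.1%, near the 18.9% of all genes) and 8 lower (42.1%, beside 20.0%). EPHA2 (1.75 ± 0.06) and the ephrin EFNB2 (3.29 ± 0.14) were higher, and EPHB6 (-4.26 ± 0.14) and EPHA4 (-1.78 ± 0.07) lower. Vasoactive and prostanoid genes had 8 of 33 higher and 15 lower (24.2% and 45.5%). PTGS2, cyclooxygenase 2, rose (0.71 ± 0.05) and PTGIS, prostacyclin synthase, fell from 322 ± 16.7 to 73.9 ± 0.907 CPM (-2.13 ± 0.04). The angiotensin receptor AGTR1 (-1.91 ± 0.12), the serotonin receptor HTR2A (-1.23 ± 0.07) and the natriuretic peptide clearance receptor NPR3 (-2.81 ± 0.09) fell, and the endothelin receptor EDNRB rose (1.83 ± 0.11).

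**Figure D4:**
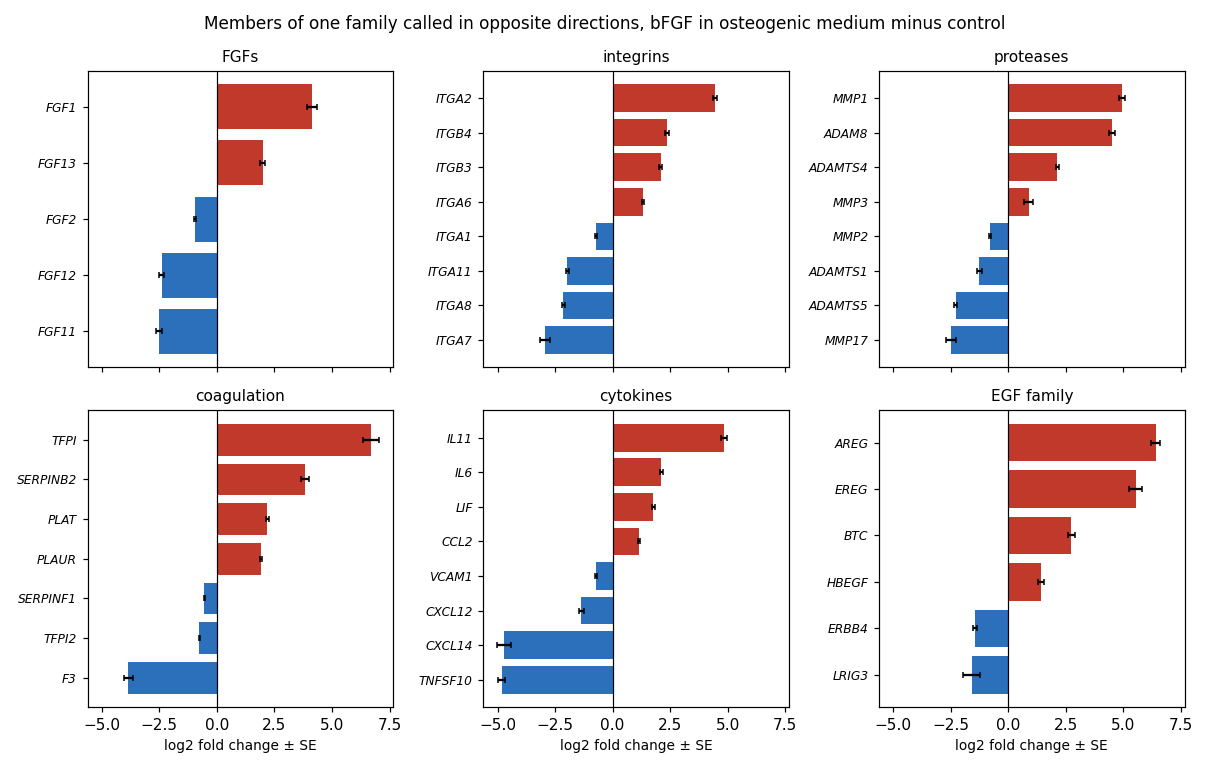
Bars give the log2 fold change (bFGF in osteogenic medium minus control, TMM scale) with its SE for members of 6 families that were called, red for higher and blue for lower. Each family holds both signs, such as ITGA2 against ITGA7, MMP1 against MMP17, TFPI against F3 and IL11 against TNFSF10.

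Glycolytic and hypoxia-inducible genes fell together, 33 of 39, with none higher and a median of -1.46. BNIP3, a hypoxia-induced mitophagy receptor, was at 265, 287 and 260 CPM in the control libraries, 235, 252 and 237 with OIM and 22.4, 21.8 and 23.2 with bFGF (-3.59 ± 0.05, edgeR adjusted p = 6.06e-21). NDUFA4L2, another hypoxia-induced mitochondrial gene, fell from 36.8 ± 4.14 to 0.886 ± 0.253 CPM (-5.37 ± 0.16), and EGLN3, an oxygen sensor, fell (-3.93 ± 0.06). The glucose transporter SLC2A1 (-1.91 ± 0.04), the lactate exporter SLC16A3 (-3.25 ± 0.05) and the glycolytic enzymes HK2 (-1.52 ± 0.05), PGK1 (-1.54 ± 0.03) and LDHA (-1.45 ± 0.04) were lower. VEGFA, also hypoxia-inducible, stayed inside the fold limit (-0.38 ± 0.05). The core hypoxia motif ACGTG, on either strand, lay in 19 of 39 promoters of this list (48.7%) and in 3389 of 13640 promoters (24.8%). P4HA1, P4HA2, PLOD2 and LOXL2, described with the collagen enzymes, are known hypoxia targets too.

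Cholesterol synthesis and uptake genes rose, 22 of 28 with none lower and a median of 0.92. HMGCS1, an early enzyme of the pathway, was at 225, 198 and 216 CPM in the control libraries, 301, 302 and 291 with OIM and 498, 493 and 461 with bFGF (1.18 ± 0.04, edgeR adjusted p = 5.61e-15). The 3 groups formed steps without overlap. MVD (1.57 ± 0.05) and SQLE (0.59 ± 0.04), later enzymes of the pathway, rose. ABCA1, which exports cholesterol, was not called and changed by -0.01 ± 0.04.

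The sterol regulatory element, searched as TCACNCCAC on both strands, stood in 4 of 28 promoters of the cholesterol list (14.3%) and in 120 of 13640 promoters (0.88%). 3 are shown with the motif in capitals. Of these genes SREBF2, which encodes the factor that binds such elements, was not called (0.25 ± 0.04) and is named for its match, and the others were called higher.
HMGCS1 (chr16:27957424-27957452, minus strand): cgtcactctcTCACCCCACttccttgccc
SQLE (chr4:14700311-14700339, minus strand): ccttcccaccTCACACCACgcaacgtagt
SREBF2 (chr5:6784799-6784827, minus strand): tgacgcgccaTCACCCCACgcgccgctcc

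Fatty acid and lipid storage genes were mixed, 10 higher and 6 lower of 26 (38.5% and 23.1%, beside 18.9% and 20.0% of all genes tested). FASN was at 597, 669 and 630 CPM in the control libraries, 1093, 1089 and 948 with OIM and 1973, 2058 and 1930 with bFGF (1.65 ± 0.05, edgeR adjusted p = 2.56e-16), and ELOVL6, which lengthens fatty acids, rose (1.71 ± 0.06). FABP3, a fatty acid carrier, rose from 16.9 ± 1.19 to 180.2 ± 14.3 CPM (3.42 ± 0.08). CIDEC, a lipid droplet protein, fell (-5.34 ± 0.38), and so did the adipogenic factor CEBPD (-2.52 ± 0.04). SCD, the stearoyl-CoA desaturase, was not called, at 790.4 ± 5.45 CPM in the control libraries, 1146 ± 40.3 with OIM and 782 ± 32.9 with bFGF.

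Endoplasmic reticulum chaperones and unfolded protein response genes had 13 of 30 lower and none higher, with a median of -0.41. With scaling by totals 6 were lower. ERO1A, which oxidizes folding proteins, fell (-1.49 ± 0.05), and XBP1 fell by less (-0.60 ± 0.04). HSPA5 (BiP), the main chaperone of the list, was inside the fold limit (-0.38 ± 0.03). ATF4 targets had 5 of 28 higher and 9 lower (17.9% and 32.1%, beside 18.9% and 20.0% of all genes tested), with 7 higher and 3 lower under totals. ATF4 (0.16 ± 0.03) and its target ASNS (0.24 ± 0.04) were inside the fold limit, the serine enzyme PHGDH (0.96 ± 0.05) and the cystine transporter SLC7A11 (0.89 ± 0.04) rose, and DDIT3 fell (-1.18 ± 0.10).

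Peroxide-removing and NRF2-linked genes were mostly not called, 5 higher and 2 lower of 29 (17.2% and 6.9%, beside 18.9% and 20.0% of all genes) with a median of 0.03, and 9 higher with scaling by totals. SOD2, the mitochondrial superoxide dismutase, had the largest change of the 7 called, at 988, 1000 and 914 CPM in the control libraries, 583, 629.7 and 631 with OIM and 211, 211 and 190.4 with bFGF (-2.24 ± 0.05, edgeR adjusted p = 1.33e-18). CAT, catalase, was at 57.9, 53.6 and 58.6 CPM in control and 58.3, 57.7 and 57.5 CPM in bFGF libraries and was not called (0.03 ± 0.05). The glutathione synthesis gene GCLC (1.09 ± 0.07) and peroxiredoxin PRDX1 (0.75 ± 0.03) rose, and PRDX6 fell (-0.78 ± 0.04).

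Lysosome and autophagy genes had 25 of 50 lower and 1 higher, with a median of -0.50 and with 3 higher when scaled by totals. The cathepsins CTSL (202, 200 and 198 to 47.5, 49.1 and 50.2 CPM, -2.03 ± 0.04, edgeR adjusted p = 5.18e-19), CTSK (-1.31 ± 0.04) and CTSH (-1.45 ± 0.04), which are lysosomal proteases, fell. The autophagy receptor SQSTM1 fell from 680.5 ± 15.5 to 323 ± 12.6 CPM (-1.07 ± 0.04), and the membrane protein LAMP2 fell (-1.35 ± 0.04) while LAMP1 was inside the fold limit (-0.29 ± 0.04).

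Interferon response and antigen presentation genes had 38 of 67 lower and 1 higher, with a median of -0.59. With scaling by totals 19 were lower and 2 higher, and without the second control library 2 were higher. GBP1 (-2.18 ± 0.12), IFIT1 (-1.70 ± 0.18) and MX1 (-0.72 ± 0.09), interferon-induced effectors, fell. Complement genes had 20 of 33 lower and 2 higher, with a median of -1.16. C3, the central component, was at 524, 624 and 521 CPM in the control libraries, 334, 349.5 and 343 with OIM and 49.7, 47.6 and 41.3 with bFGF (-3.59 ± 0.07, edgeR adjusted p = 3.81e-19). The proteases C1R (-1.71 ± 0.04) and C1S (-2.04 ± 0.05), the inhibitor SERPING1 (-1.26 ± 0.06) and clusterin CLU (-1.87 ± 0.04) fell.

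Stromal cytokines and chemokines had 13 of 45 higher and 19 lower. IL11, a cytokine of the IL-6 family, was at 12.7, 14.3 and 12.5 CPM in the control libraries, 28.1, 41.5 and 24.04 with OIM and 369.8, 388 and 363 with bFGF (4.83 ± 0.13, edgeR adjusted p = 4.86e-17). IL6 rose from 113 ± 5.27 to 490.3 ± 17.8 CPM (2.12 ± 0.06) and LIF from 82.4 ± 5.76 to 280.2 ± 14.7 CPM (1.77 ± 0.06). CCL2 (1.14 ± 0.04) and CXCL8 (0.90 ± 0.07), which attract monocytes and neutrophils, rose. TNFSF10, the death ligand TRAIL, was at 62.05, 62.7 and 58.4 and 2.48, 2.46 and 1.48 CPM in control and bFGF libraries (-4.83 ± 0.13, edgeR adjusted p = 5.93e-17). CXCL12 (-1.36 ± 0.12), CXCL14 (-4.72 ± 0.30), IL1B (-2.26 ± 0.28) and the adhesion molecule VCAM1 (-0.74 ± 0.05) fell.

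Glucocorticoid-responsive genes had 9 of 15 lower and 2 higher. ZBTB16 (-3.30 ± 0.19) and HSD11B1, which regenerates active glucocorticoid (-2.04 ± 0.06), fell, while FKBP5 rose (1.04 ± 0.07). Clock genes had 1 of 19 higher and 4 lower (21.1%, near the 20.0% of all genes), or 2 higher in DESeq2, with a replicate block, with scaling by totals, in the 6 libraries alone and without the third control library, including BHLHE40 (-2.03 ± 0.04) and NFIL3 (-2.51 ± 0.06), which are repressors. The S100 and annexin families had 4 of 25 higher and 7 lower (16% and 28%, near the 18.9% and 20.0% of all genes), with the fibroblast gene S100A4 higher (1.16 ± 0.04) and annexin ANXA8 lower, from 325 ± 7.33 to 45.4 ± 1.81 CPM (-2.84 ± 0.05).

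Transcription factors of valve development had 10 of 40 in each direction (25%, near the 18.9% and 20.0% of all genes), or 12 higher and 6 lower with scaling by totals. NFATC1, needed for valve formation, was at 34.9, 39.3 and 38.8 CPM in the control libraries, 40.98, 33.95 and 39.2 with OIM and 6.81, 8.11 and 7.95 with bFGF (-2.31 ± 0.09, edgeR adjusted p = 4.97e-15), and NFATC2 fell with it (-3.04 ± 0.11). TBX20 (-1.24 ± 0.05), TBX18 (-0.97 ± 0.04) and GATA6 (-0.72 ± 0.04) fell, whereas TBX3 (1.62 ± 0.08), TBX2 (0.89 ± 0.08), OSR1 (2.53 ± 0.09) and TCF21, a factor of fibroblast precursors (1.11 ± 0.12), rose. GATA4 was inside the fold limit (0.22 ± 0.05).

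**Figure D5:**
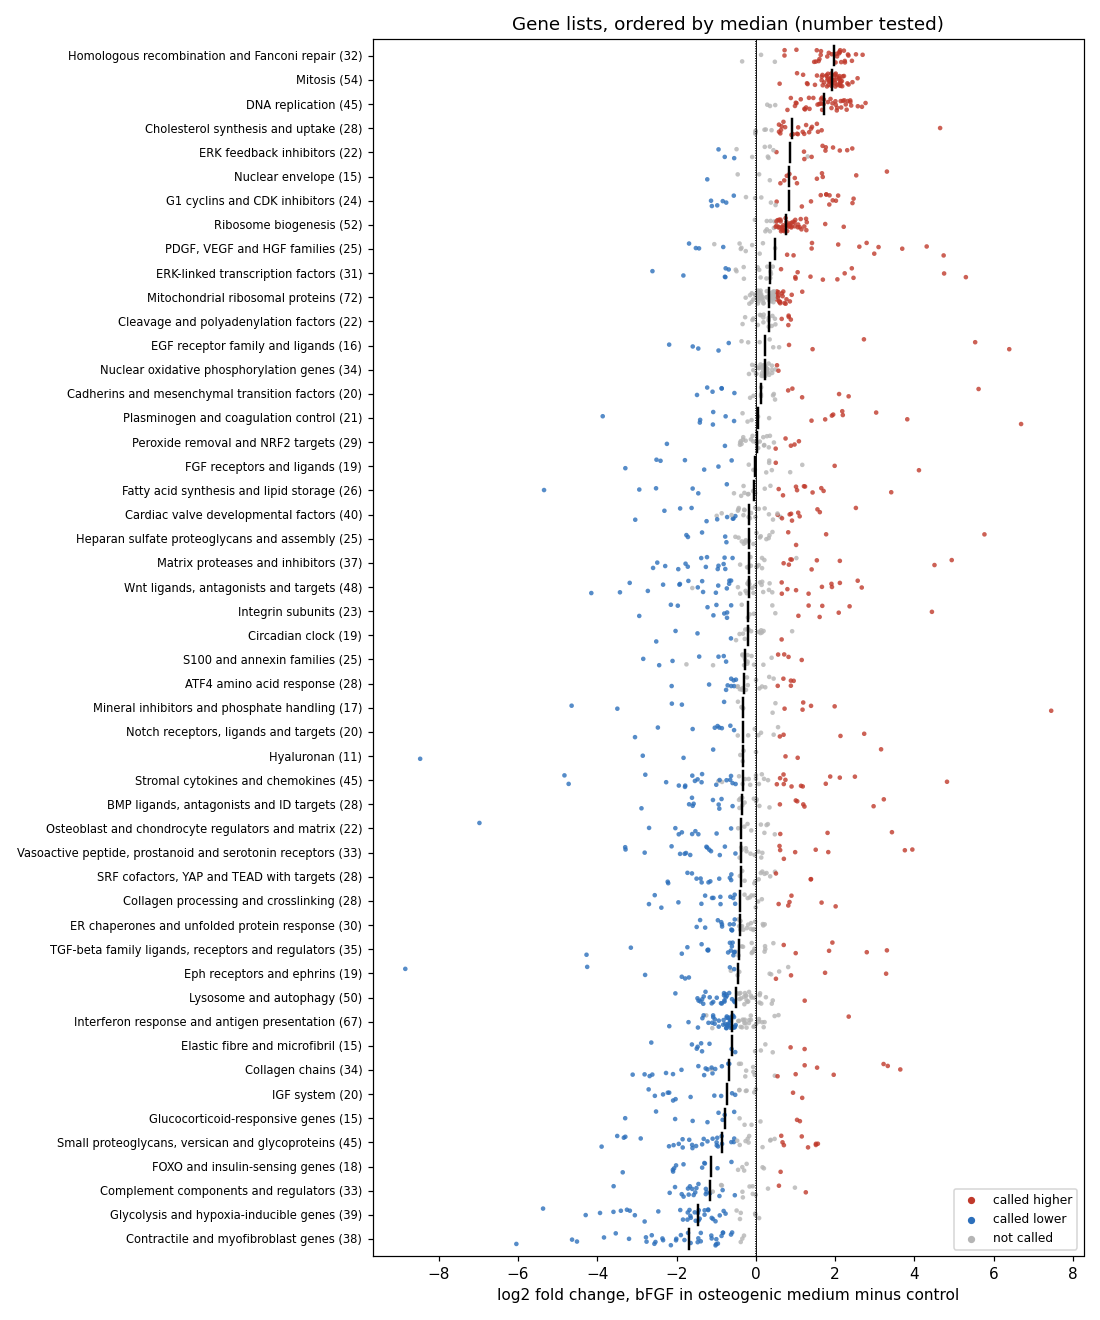
Each row is 1 of 50 gene lists with the number of members tested, ordered by the median log2 fold change (bFGF in osteogenic medium minus control, TMM scale). Points are genes (red called higher, blue called lower, grey not called), the black bar is the list median and the dotted line the median of all genes tested at -0.02; repair, mitosis and replication lie at the top and contractile, glycolytic and complement genes at the bottom.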

How the data were processed

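Total RNA of PVICs in 3 groups of 3 libraries was sequenced. Per the labels, libraries were made with a stranded, ribosomal RNA-depleted kit and the submitters' processing notes name Trimmomatic, HISAT2, StringTie and the build Sscrofa11.1, whereas the paper's methods name poly-A selection, Cutadapt and STAR. The authors deposited 1 table of expected counts (estimated counts) without normalization, whose gene rows, the rows used here, hold whole-number counts. The counting program and its strand setting are not given in the sources used here, and 19 unnamed empty columns were not used. The labels give a treatment of 3 days and the methods a shorter one.

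Genes were filtered with filterByExpr, scaled by TMM and fitted with the edgeR 4.0.16 quasi-likelihood model (R 4.3.3) on all 3 groups, leaving 6 residual degrees of freedom, and adjusted by Benjamini-Hochberg over 13662 genes. The common biological coefficient of variation was 0.0602. In simulated counts for bFGF against control over 13662 genes, 197 of 200 changed genes were recovered (98.5%) with 3 false calls. The changed genes were few, had at least 1 CPM on average, and were given changes well above the fold limit, balanced in sign. The share recovered therefore does not give the sensitivity of the calls in the data, where far more genes changed and many were low. Members of 50 gene lists and 8 marker lists were matched by symbol (1739) or RefSeq synonym (1) of 1820 written. Of the gene symbols, 25 had been altered to dates and were not named. Per-length levels divide CPM by the annotated exon bases of the RefSeq annotation. Promoters were read from Sscrofa11.1 with pysam 0.24.0.

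Genes named were the 12 largest fold changes in each direction with no overlap between groups and at least 5 CPM, the 6 largest CPM differences in each direction, and in each list preset genes and the 6 called members with the largest change; markers and genes shown for a promoter match are named besides, COL7A1, COL18A1, ITGA10, TGFB1 and HEY2 were added after their values were seen, and a few genes that met the rule are not reported here. In the rankings by fold change and by CPM, genes with a LOC or Ensembl name, an altered date or a repeated symbol were left out. The members, lists and rules were chosen with earlier results of these data known. Alternatives were DESeq2 1.42.0, median-of-ratios factors, library totals, other filters, the 6 libraries alone, a replicate block, other limits on the fold change, and fits without 1 library. Added after seeing the data were equal-depth libraries and omission of the 50 most abundant genes.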

Additional observations from a re-analysis of the deposited data

How the results depend on the processing

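None of the 5323 calls changed sign under any alternative that was run. Counts of higher and lower calls moved by over 1.5 times with library totals alone (3931 higher, against 1840 lower, which stayed within that range), with no limit on the fold change (4709 and 4881) and with the limit on the log2 scale raised to 1 (1339 and 1417). Leaving out 1 library gave 2542 to 2599 higher and 2662 to 2707 lower. DESeq2 gave 2639 and 2712, the control and bFGF libraries alone 2672 and 2600, equal-depth libraries 2592 and 2720, and the omission of the 50 most abundant genes 2570 and 2720. With a replicate block the counts were 2572 and 2713 and 98.9% of calls remained. Same-numbered control and bFGF libraries had deviations that correlated at 0.0741, 0.038 and 0.0298, below 0.1, so the numbers were not taken to pair the libraries, although each correlated best with its own number. With library totals 9 named genes lost their call, all lower before, at -0.4993 to -0.3166, and 9 gained one, at 0.5151 to 0.7086. Of the named genes, CDH5 also gained a call in the 6 libraries alone, at equal depth and in 3 fits without 1 library, and TEK, RYR2, TNNI3 and ROBO4 lost theirs in 1, 2, 3 and 4 such fits. At the same limit on the fold change, DESeq2, median-of-ratios factors, the replicate block and the omission of the 50 most abundant genes changed no call of a named gene that was fitted; the other filters and limits were run for the total counts alone. Of the genes named, 3 that were not called changed sign: ABCA1 was 0.2109 with library totals, 0.001418 in the 6 libraries alone and -0.03298 to 0.01374 without 1 library, SCD was 0.2081 with library totals and -0.03536 to 0.01812 without 1 library, and CAT was -0.0127 to 0.05222 without 1 library. The cause was not tested.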

Other observations

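The genes at or near 0 counts in one group include several outside the gene lists, and those given here were chosen after their values were seen. Among genes with at most 3 counts in each control library, NPTX2, a neuronal pentraxin, reached 2.04 CPM in bFGF libraries and was at least 39.6-fold higher. LRRC7 reached 1.77 CPM (at least 34.2-fold higher). In the other direction SGPP2, a sphingosine phosphate phosphatase, stood at 1.89 CPM in control libraries and was at least 33.1-fold lower, and LDB3, a protein of the muscle Z-disc, at 1.13 CPM and at least 19.7-fold lower. Each of these was called in edgeR's quasi-likelihood test. Since they were picked for counts near 0 in one group, the calls add no support.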
